A study of Mus musculus with 9 samples.

Results

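Smooth muscle cells wrap arteries and arterioles and narrow or widen them. Contraction is driven by a smooth muscle myosin that pulls on actin filaments when its regulatory light chain is phosphorylated, and calponin and tropomyosin on the filament modulate that pull. Many genes of this apparatus are read by serum response factor (SRF), which binds the CArG box and works with the co-activator myocardin. In brain, these genes mark the smooth muscle of arteries on the surface and of the arterioles that enter the tissue, and capillary pericytes carry little of most of them.

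The 8 contractile genes described here are Acta2, Myh11, Myl9, Tagln, Cnn1, Tpm2, Lmod1 and Des, taken by symbol from a table of 57180 genes. Each matched 1 row, and all 8 reached the mean of 10 normalized counts required for testing, as did 17036 genes in all. They were measured by RNA-seq of whole hippocampus from 11-day-old C57BL6 mice. In 4 animals (cKO) Slc38a3, which encodes the glutamine transporter SNAT3, was knocked out selectively in endothelial cells, and 5 animals were wild type (WT). Of the cKO animals 3 were male and 1 was female, while WT animals were 1 male and 4 females. Which Cre driver was used and which alleles WT animals carried is not stated in the labels. Each library came from total RNA made into a stranded library. Values are normalized counts, that is, reads per gene divided by a size factor for each library. The reads recovered from them numbered 32096409 to 34034530 in cKO libraries and 30803135 to 33134405 in WT libraries. Slc38a3 itself lay between 308 and 405 normalized counts in cKO and between 1804 and 3514 in WT. All 8 members were detected in every library, with 5 reads of Cnn1 in 1 library and 5 of Lmod1 in another as the lowest counts.

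Promoter sequences are shown for the members in which a CArG box was found, because this element is the shared control site for which smooth muscle genes are known. Of the 8 members, 6 had an entry in the RefSeq promoter table (GRCm38.p6), and none was available for Tagln or Myh11. The 250 bases before each start site were searched for the CArG box, a pattern that reads the same on both strands. Acta2 held none without a substitution and 2 with 1 G or C in the A/T core, and Myl9 held 1 of each kind. Boxes are in capitals, and each stretch is read 5′ to 3′ on the strand of its gene, at chr19:34255383-34255472 (minus strand) for Acta2 and chr2:156775288-156775389 (plus strand) for Myl9:
Acta2: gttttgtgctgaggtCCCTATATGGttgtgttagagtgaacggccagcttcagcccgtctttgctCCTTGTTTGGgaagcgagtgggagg
Myl9: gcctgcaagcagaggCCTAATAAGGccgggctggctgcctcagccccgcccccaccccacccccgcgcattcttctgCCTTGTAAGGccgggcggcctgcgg
The boxes began 84 and 34 bases before the start in Acta2 and 161 and 99 bases before it in Myl9. Among all 32851 entries, 1.47% held a CArG box in these 250 bases, and 8.59% held one with at most 1 G or C in the core. Cnn1, Tpm2, Lmod1 and Des held neither in this window. CATTCC, the MCAT element to which TEAD factors bind, was found on either strand in Acta2 and Lmod1 and in 12.6% of all entries. These are matches of letters, not sites shown to be bound.

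The members differed widely in level. Per kilobase of exon, Myl9, the regulatory light chain gene, had the highest level, at 367 ± 69.0 normalized counts per kb in the 4 cKO libraries (mean ± SD) and 363 ± 63.8 in the 5 WT libraries. Acta2, the smooth muscle actin gene, followed at 223 ± 71.7 in cKO and 183 ± 88.6 in WT. Tagln, which encodes the actin-binding protein transgelin, was at 95.2 ± 18.7 in cKO and 80.7 ± 38.7 in WT. Below these came the tropomyosin gene Tpm2, the myosin heavy chain gene Myh11 and the intermediate filament gene Des, with means over all 9 libraries of 40.7, 31.5 and 15.3 normalized counts per kb. The calponin gene Cnn1 and the leiomodin gene Lmod1 were lowest, with means of 6.31 and 5.19. Each gene lay above the next in all 9 libraries, except that Cnn1 exceeded Lmod1 in only 4 of 9. That last pair is therefore not ordered beyond its spread, and the ranges over libraries stood apart only between Myh11 and Des.

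**Figure D1:**
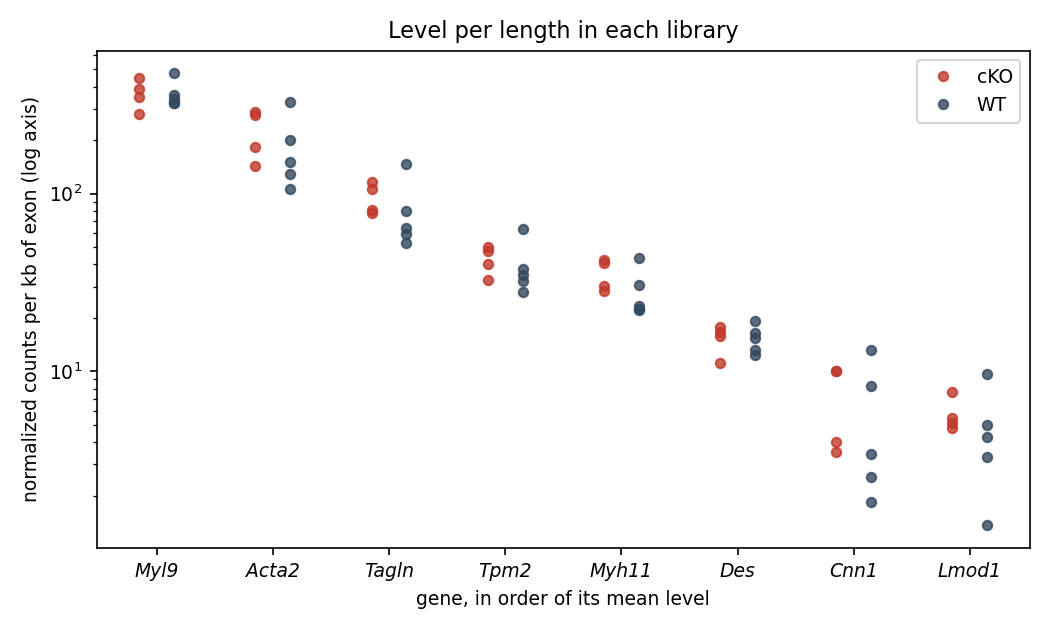
Normalized counts per kb of exon (log axis) of the 8 genes, ordered by mean level, with 1 point per cKO library (left, red) and WT library (right, dark). Myl9 and Acta2 lie at the top, and Cnn1 and Lmod1 share the bottom with the widest spread.

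No member passed the test between cKO and WT, and in every member the libraries of the groups overlapped. The larger pattern in these genes lay between libraries of 1 group: most members were high in cKO replicates 2 and 4 and WT replicate 3, and low in WT replicates 1 and 4. In bulk tissue fewer smooth muscle cells and less RNA per cell cannot be told apart.

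Actin and myosin, the motor itself, come first. Acta2 (ENSMUSG00000035783, chromosome 19, 34218489 to 34232990 in GRCm39) had 312, 636, 402 and 607 normalized counts in cKO replicates 1 to 4, against 234, 331, 722, 282 and 442 in WT replicates 1 to 5. WT replicate 3 held the highest value of all 9 and WT replicate 1 the lowest, a range of 3.08-fold that lies within WT alone. The log2 fold change, from a model with sex as a term on log2(normalized count + 1), came to 0.73 ± 0.280 (limma estimate ± SE, adjusted p = 0.347), with a 95% interval of 0.12 to 1.33. Without the sex term it was 0.34 (limma adjusted p = 0.594).

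Myh11 (ENSMUSG00000018830, chromosome 16, 14012398 to 14109236), whose myosin heavy chain is the most specific marker of mature smooth muscle, had 216, 323, 228 and 307 normalized counts in cKO replicates 1 to 4, against 178, 170.3, 331, 168 and 233 in WT replicates 1 to 5. The same 3 libraries as for Acta2 were highest, WT replicate 3 and cKO replicates 2 and 4. On the log2 scale the fold change was 0.53 ± 0.211 (limma adjusted p = 0.368), with a 95% interval of 0.07 to 0.98.

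Myl9 (ENSMUSG00000067818, chromosome 2, 156617339 to 156623578) had 326, 517, 453 and 408 normalized counts in cKO replicates 1 to 4, against 377, 395, 552, 374 and 415 in WT replicates 1 to 5. WT replicate 3 was again highest, but the lowest library was cKO replicate 1 and the range was narrower, at 1.69-fold. The log2 fold change of 0.17 ± 0.140 (limma adjusted p = 0.686) had a 95% interval of -0.13 to 0.47. It was 0.06 without cKO replicate 2, the only cKO female, and 0.27 without WT replicate 1, the only WT male. With sex as a term, the former fit compares the genotypes within males alone and the latter within females alone.

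Proteins that bind and regulate the actin filament form the next set. Tagln (ENSMUSG00000032085, chromosome 9, 45840916 to 45847356), an early marker of the lineage, had 161, 230.1, 155 and 211 normalized counts in cKO replicates 1 to 4, against 105, 117, 293, 128 and 159 in WT replicates 1 to 5. All 4 cKO libraries stood above WT replicates 1, 2 and 4, while WT replicate 3 stood above all of them. Its estimate was a log2 fold change of 0.61 ± 0.258 (limma adjusted p = 0.401), with a 95% interval of 0.05 to 1.16. WT replicate 3 set much of the WT spread, with a WT mean of 160.4 ± 77.0 (SD, 5 libraries), and of 127 ± 23.3 without that library (SD, 4 libraries). Tagln overlaps a long non-coding RNA on the opposite strand, Gm48529, and 55.4% of its 50-base windows also occur in that transcript. Gm48529 was at 49.6 ± 9.08 in cKO and 45.1 ± 3.83 in WT. The libraries are stranded, but the labels do not state whether the counting used strand, so reads of this pair may not be told apart. For the other 7 members at most 4.61% of windows were shared with another gene.

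Cnn1 (ENSMUSG00000001349, chromosome 9, 22010511 to 22020926), whose calponin slows the myosin cycle, had 10.9, 27.4, 9.68 and 27.35 normalized counts in cKO replicates 1 to 4, against 6.98, 9.35, 36.2, 5.02 and 22.6 in WT replicates 1 to 5. High values came from cKO replicates 2 and 4 and WT replicates 3 and 5, and the other 5 libraries, of both genotypes, held less than any of these. An estimate of 0.92 ± 0.574 made its log2 fold change the largest of the 8, also with the largest SE (limma adjusted p = 0.572, 95% interval -0.32 to 2.15). With 5 to 37 reads per library, the pooled SD within groups was still 2.86 times the counting error.

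Tpm2 (ENSMUSG00000028464, chromosome 4, 43514710 to 43523765), whose tropomyosin lies along the filament and is also made in slow skeletal muscle, had 94.5, 138, 117 and 146 normalized counts in cKO replicates 1 to 4, against 102, 109, 185, 81.3 and 93.6 in WT replicates 1 to 5. WT replicate 3 was highest by a wide margin and WT replicate 4 lowest. Its log2 fold change was 0.26 ± 0.245 (limma adjusted p = 0.725, 95% interval -0.27 to 0.78).

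Lmod1 (ENSMUSG00000048096, chromosome 1, 135252544 to 135295803), whose leiomodin starts new actin filaments, had 18.9, 30.4, 20.3 and 21.7 normalized counts in cKO replicates 1 to 4, against 16.95, 19.7, 38.1, 13.1 and 5.38 in WT replicates 1 to 5. WT libraries enclosed all cKO libraries on both sides. For this gene the log2 fold change was 0.60 ± 0.491 (limma adjusted p = 0.679, 95% interval -0.46 to 1.66). It depended on the libraries used, and leaving out WT replicate 5 gave 0.36. It was 0.24 within males, which is the fit without cKO replicate 2. Within females, the fit without WT replicate 1, it was 0.93.

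Des (ENSMUSG00000026208, chromosome 1, 75336972 to 75345223), whose filament links the contractile units and which pericytes and striated muscle also express, had 41.8, 66.6, 62.9 and 59.4 normalized counts in cKO replicates 1 to 4, against 61.8, 71.7, 57.7, 46.2 and 49.5 in WT replicates 1 to 5. It was the only member in which WT replicate 3 did not lead, and WT replicate 2 was highest. The log2 fold change of 0.04 ± 0.216 (limma adjusted p = 0.962) had a 95% interval of -0.43 to 0.51. It was -0.20 within males, which is the fit without cKO replicate 2. Within females, the fit without WT replicate 1, it was 0.26.

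**Figure D2:**
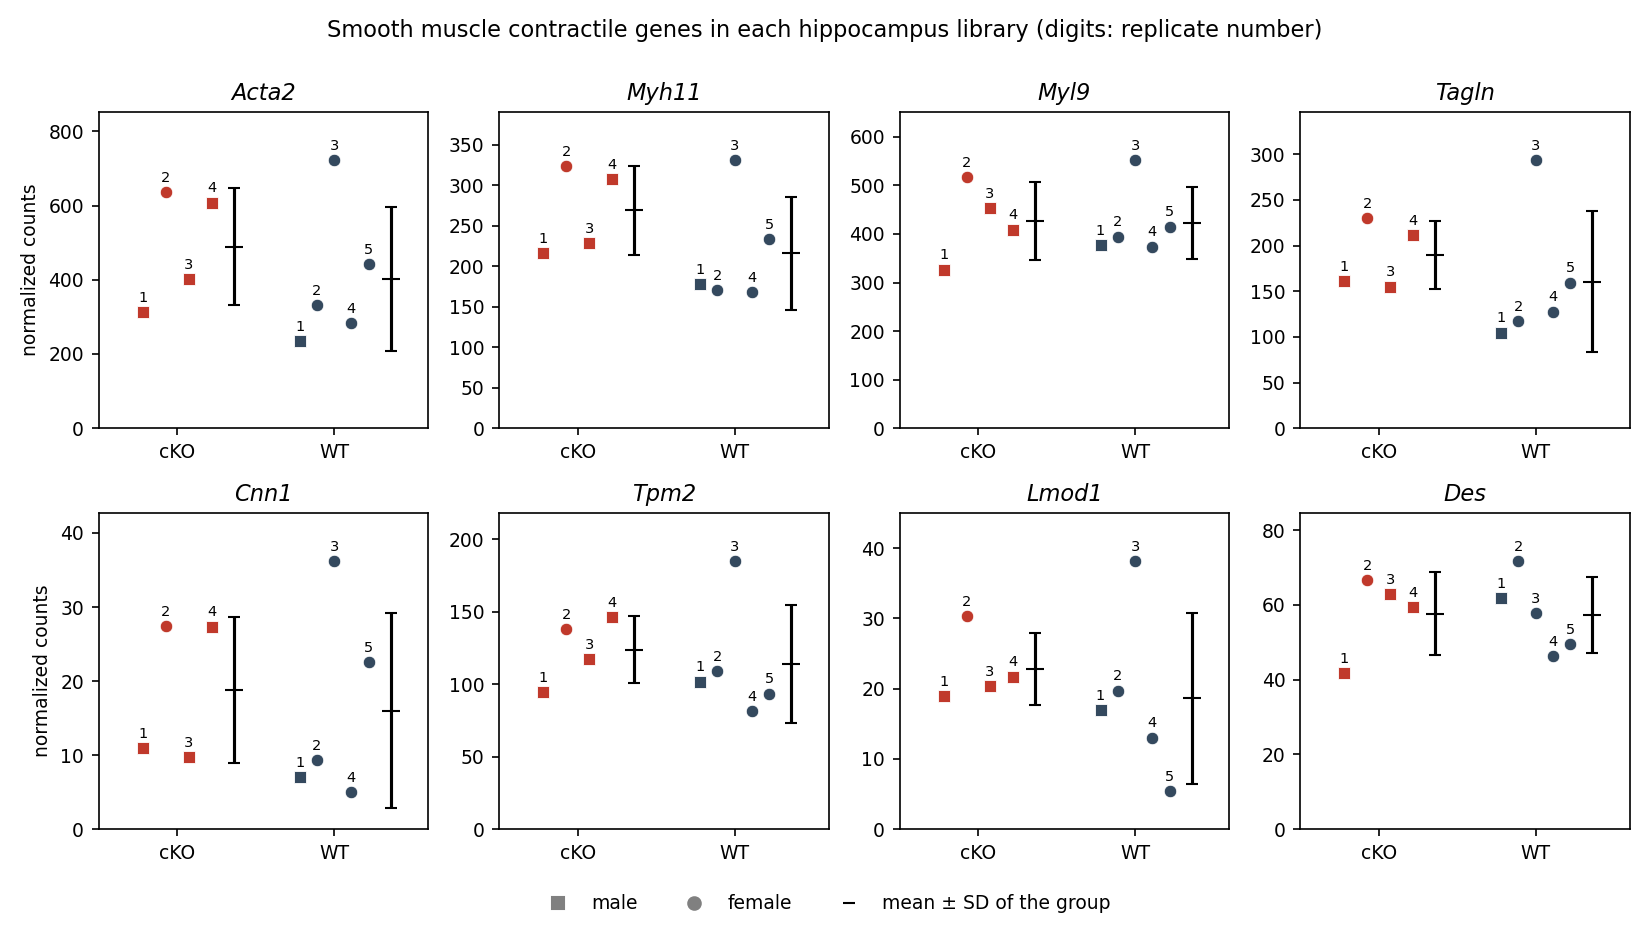
Normalized counts of each gene in each library, cKO (red) left of WT (dark), squares for males and circles for females, with replicate numbers and the mean ± SD of the group. WT replicate 3 is the highest library in all genes but Des, and the groups overlap in each gene.

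Across the set, 0 of 8 members passed (limma-trend with Benjamini-Hochberg adjustment over 17036 genes), where 0.346% of all genes did. The lowest adjusted p among the members was 0.347. At an unadjusted p under 0.05 there were 3 members, Acta2, Myh11 and Tagln, against 11.3% of all genes. edgeR's quasi-likelihood test gave 2 such members, Acta2 and Myh11, and DESeq2 gave 0, both on recovered reads, and both had 0 members at an adjusted p under 0.05, DESeq2 leaving 2 members without an adjusted p. All 8 estimates were above 0, as were 48.8% of all genes, with a median log2 fold change of 0.56 for the members and -0.0034 for all genes. Most members were high and low together in the same libraries, Des and Lmod1 less so, and the 8 directions are therefore not separate observations. Without the sex term the median was 0.33, with 8 of 8 members and 49.4% of all genes above 0. In that model the log2 fold changes were 0.32 for Tagln, 0.34 for Myh11, 0.42 for Cnn1, 0.16 for Tpm2, 0.49 for Lmod1 and 0.0084 for Myl9. None of the members had groups that did not overlap, while 6.29% of all genes did.

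WT replicate 3 carried much of the uncertainty. Without it the median log2 fold change of the members was 0.69 and the lowest limma adjusted p 0.0614, that of Tagln, at a log2 fold change of 0.75 ± 0.150. Acta2 was then at 0.86 ± 0.202 (limma adjusted p = 0.117). No member passed with any library left out in turn, and the label of WT replicate 3 gives no reason to leave it out.

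Sex is unevenly split between the genotypes, so the order within each sex was read as well. Among males, all 3 cKO libraries were above the single WT male in 5 of 8 members, which were Acta2, Tagln, Myh11, Cnn1 and Lmod1. In Des only 1 of the 3 cKO males exceeded the WT male. Among females, the single cKO library exceeded 3 of the 4 WT libraries in all 8 members, the exception being WT replicate 2 for Des and WT replicate 3 for the others. These counts rest on WT replicate 1 among males and cKO replicate 2 among females. The former was low and the latter high for most members, so the members are not separate observations. The share of all genes with these orders was not counted. The median log2 fold change of the members was 0.36 in males only and 0.54 in females only, each resting on 1 library of 1 genotype.

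**Figure D3:**
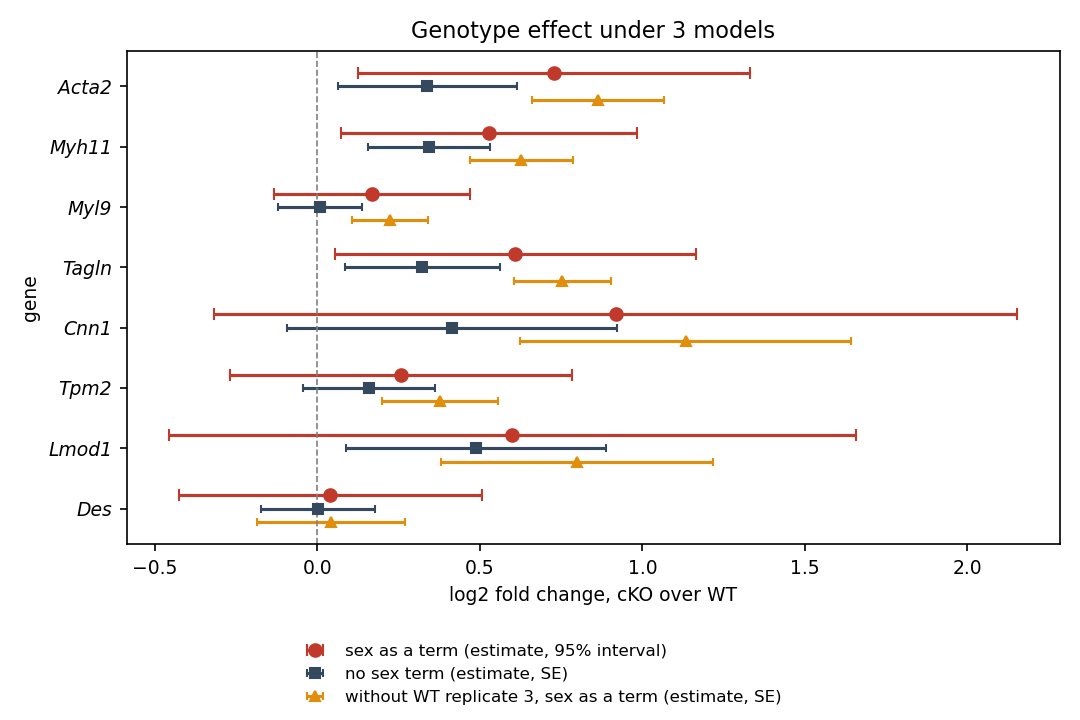
Log2 fold change, cKO over WT, of each gene with sex as a term (red circles, 95% interval), without the sex term (dark squares, SE) and without WT replicate 3 (orange triangles, SE). The estimates of Acta2 are 0.73, 0.34 and 0.86, and those of Des are 0.04, 0.0029 and 0.04.

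The shared pattern over libraries was described by the deviation of log2(normalized count + 1) from each gene's own mean. WT replicate 3 had a mean deviation of 0.69 over the 8 members, was above the mean in all 8 and held the highest value in 7. cKO replicate 2 was also above the mean in all 8 (mean deviation 0.50) and among the 3 highest libraries for every member. cKO replicate 4 was above in 7 of 8 (0.35). At the other end, WT replicate 4 was below the mean in all 8 (-0.52) and WT replicate 1 in all but Des (-0.39). The summed level of the 8 genes was 1181, 1968, 1447 and 1789 normalized counts in cKO replicates 1 to 4, against 1081, 1223, 2214, 1096 and 1420.5 in WT replicates 1 to 5.

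**Figure D4:**
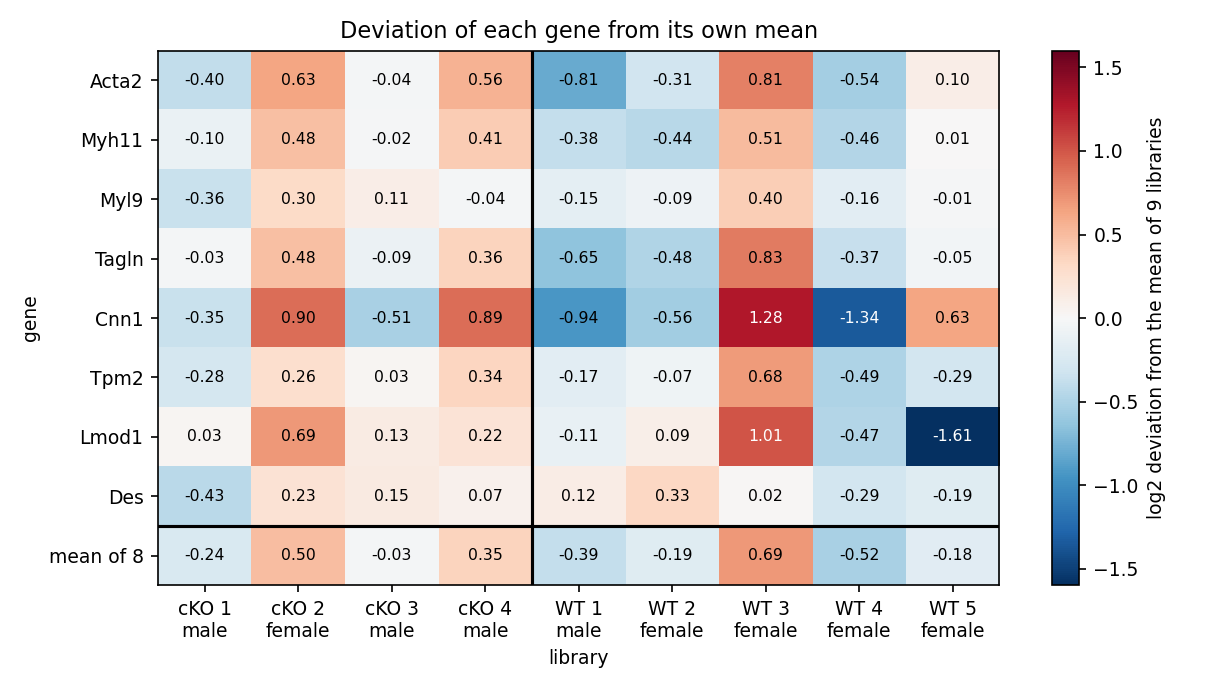
Log2 deviation of each gene (rows) from its own mean of 9 libraries (columns, cKO left of WT), with the mean of the 8 genes in the last row. WT replicate 3 and cKO replicate 2 are above the mean in every gene and WT replicate 4 is below it in every gene.

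Likeness to this pattern was measured by the root mean square difference, which counts the size of the deviations as well as their side. Tpm2 and Myh11 lay closest to the mean profile of the 8, with root mean square differences of 0.12 and 0.13 on the log2 scale over 9 libraries. Tagln, Acta2 and Myl9 differed from it by 0.17, 0.20 and 0.24. Des differed by 0.37, near the 0.39 of a profile that does not vary at all, and the sparse Lmod1 and Cnn1 by 0.52 and 0.56. Cnn1 was nevertheless on the same side of its mean as the 8 genes together in 8 of 9 libraries, all but WT replicate 5, and its deviations were larger (root mean square 0.88 on the log2 scale). By this count Tagln was on the same side in 9 of 9 libraries, Acta2, Myh11 and Tpm2 in 8, Myl9 in 7, and Lmod1 and Des in 6. The ratios between members were not constant: Acta2 ran from 0.62 times Myl9 in WT replicate 1 to 1.49 times in cKO replicate 4, both in normalized counts.

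The spread within groups was large for genes of this level. The residual SD of Acta2 in the model was 0.51 on the log2 scale, above that of 99.5% of the 1298 genes of similar mean level, whose median was 0.10. Those of Tagln and Myh11 were 0.45 and 0.36, above 98.1% and 97.8% of genes at their level. Des, at 0.29, stood above 67.0%. The pooled SD of Acta2 within groups was 8.55 times the counting error, and that of Des 1.39 times. Counting error was thus a small part of the spread of Acta2.

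Genes with a like pattern were taken as the 10 of 13907 candidates (mean of at least 50) with the smallest root mean square difference from the mean profile of the 8. They are a description over 9 libraries. The nearest was Fbln5, whose fibulin builds elastic fibres in vessel walls, with a difference of 0.15 and levels of 386 ± 93.7 normalized counts over cKO libraries and 364 ± 131 over WT libraries (mean ± SD). Ccdc103 (0.20), the membrane protein gene Tm4sf1 (0.21), the chemerin gene Rarres2 (0.22) and the tetranectin gene Clec3b (0.24) followed. Thrsp, Rasl12, Gata2, Krt9 and Zbtb7c completed the 10, each at 0.24. The median over all candidates was 0.41. WT replicate 3 was the highest library in 8 of the 10, all but Thrsp and Zbtb7c. The genes were chosen for likeness to a profile that is highest there, so this is not a separate result.

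Further genes of the contractile apparatus were a list of 25 that also holds widely expressed genes. It gave 1 lower in cKO, 0 higher and 24 that did not pass. At an unadjusted p under 0.05 (limma) there were 5, against 11.3% of all genes. The median log2 fold change was -0.03, but estimates ran from -0.32 to 0.85 and 10 were above 0. The gene that fell was Csrp1, which encodes a LIM protein of the actin cytoskeleton found in smooth muscle and other cells. It had 1320, 1520, 1504 and 1486 normalized counts in cKO replicates 1 to 4, against 1764, 1919, 1990.2, 1794 and 1958 in WT replicates 1 to 5, with no overlap. Its log2 fold change was -0.32 ± 0.0580 (limma adjusted p = 0.0393), and its call was lost without any of 6 of the 9 libraries (cKO replicates 1 and 2, WT replicates 1, 2, 3 and 5), with limma adjusted p from 0.0596 to 0.337. With 1 library left out the log2 fold change of Csrp1 stayed between -0.33 and -0.29. Without the sex term its limma adjusted p was 0.00318. The synemin gene Synm was at 2129 ± 200.5 in cKO and 2417 ± 62.8 in WT (limma adjusted p = 0.228, and 0.0492 without cKO replicate 4). Ppp1r12a, the gene of the targeting subunit of myosin phosphatase, was at 3097 ± 156 in cKO and 3465 ± 198 in WT (limma adjusted p = 0.317). Map3k7cl, a low gene at 19.9 ± 4.25 in cKO and 16.9 ± 6.57 in WT, had a log2 fold change of 0.77 ± 0.321 (limma adjusted p = 0.395). Without the sex term it was 0.30 (limma adjusted p = 0.703).

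Of 15 ion handling genes of smooth muscle, 0 passed and 3 had an unadjusted p under 0.05 (limma), against 11.3% of all genes. The median log2 fold change was -0.12. This list also holds widely expressed genes, so the median is not a measure of smooth muscle alone. Atp2a2 made up 43.1% of the summed level of the list. Pln, whose phospholamban restrains the calcium pump of the sarcoplasmic reticulum, was at 16.3 ± 8.48 normalized counts in cKO and 10.1 ± 4.48 in WT, a log2 fold change of 1.31 ± 0.339 (limma adjusted p = 0.161), which was 0.62 without the sex term (limma adjusted p = 0.467). The channel subunit gene Abcc9 is given with the pericyte markers. The pump gene Atp2a2, which neurons also express, was at 30641 ± 1048 in cKO and 33371 ± 1442 in WT (limma adjusted p = 0.351). Itpr1, a calcium release channel gene, had 4965 ± 398 in cKO and 5488 ± 492 in WT (limma adjusted p = 0.513).

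Regulators of the programme were examined in turn. Of 17 SRF and myocardin pathway genes, 16 could be tested and 0 passed, with a median log2 fold change of 0.0088. An unadjusted p under 0.05 (limma) was found for 4 of the 16, against 11.3% of all genes. Myocd, the gene of myocardin and named here after its values were seen, lay below the level for testing, at 3.98 to 10.4 normalized counts in cKO and 1.04 to 9.04 in WT. Fhl1, a LIM protein gene, had 4816 ± 217 in cKO and 4396 ± 136 in WT (limma adjusted p = 0.365), without overlap. Tead1 was at 1494 ± 138 in cKO and 1596 ± 64.1 in WT (limma adjusted p = 0.370), and Mef2c, a neuronal gene in this tissue as well, at 7065 ± 1691 in cKO and 5139 ± 581 in WT (limma adjusted p = 0.407). Mrtfb, the gene of a myocardin-related co-activator, had 6052 ± 376 in cKO and 6427 ± 282 in WT (limma adjusted p = 0.439).

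Signals by which endothelium recruits and matures mural cells were listed with receptors and intracellular effectors of the responding cells, Rgs4 among them. Of these 21 genes 0 passed and 4 had an unadjusted p under 0.05 (limma), against 11.3% of all genes. The median log2 fold change was -0.10, which describes this mixed list and not the endothelial signals alone. Eng, an endothelial co-receptor for TGF-beta, was lowest by p, at 1013 ± 12.9 normalized counts in cKO and 1188 ± 48.7 in WT (log2 fold change -0.24 ± 0.0526, limma adjusted p = 0.0821). Its adjusted p was 0.0229 with DESeq2 and 0.01995 in limma without the sex term. Jag1, the Notch ligand that signals to smooth muscle, was at 315 ± 29.4 in cKO and 362 ± 23.9 in WT (limma adjusted p = 0.168). Rgs4, which neurons also express, had 6848 ± 501 in cKO and 8149 ± 495 in WT (limma adjusted p = 0.196, and 0.0338 without the sex term). Pdgfb, the ligand that draws mural cells to vessels, was at 1578 ± 55.9 in cKO and 1731 ± 92.2 in WT (limma adjusted p = 0.383).

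Markers of neighbouring vessel cells were set beside the members, because a hippocampus sample may hold more or less surface tissue. Their part in the members' levels was not tested. Pericytes, the mural cells of capillaries, gave 0 of 14 that passed, with 11 estimates below 0 and a median log2 fold change of -0.11. Of the 14, 4 had an unadjusted p under 0.05 (limma), against 11.3% of all genes. Their summed level was 13910 to 15087 normalized counts in cKO and 15286 to 16563 in WT, without overlap, and Rgs5 was the largest part of it. The mean log2 deviation of the 14 genes, which weighs each gene alike, did overlap. It was -0.19 to 0.07 in cKO and -0.04 to 0.13 in WT. Only 2 of the 14 genes, Rgs5 and Atp13a5, had groups that did not overlap. The gap in the sum therefore does not describe the pericyte markers as a set. Rgs5, which smooth muscle also expresses, was at 6865 ± 646 in cKO and 8132 ± 250.2 in WT (log2 fold change -0.25 ± 0.0643, limma adjusted p = 0.161). Its adjusted p was 0.0266 with DESeq2, 0.0352 in limma without the sex term and 0.0413 in limma without cKO replicate 3. Abcc9, which encodes a potassium channel subunit of pericytes, had 508 ± 88.9 in cKO and 611 ± 21.98 in WT (limma adjusted p = 0.240). Atp13a5 had 427 ± 8.56 in cKO and 492 ± 27.4 in WT (limma adjusted p = 0.269). Other markers lay the other way: Slc6a20a had 462 ± 116 in cKO and 306 ± 59.2 in WT (log2 fold change 0.53 ± 0.191, limma adjusted p = 0.313), and Vtn, second in level, had 1640.1 ± 115 in cKO and 1597 ± 140.1 in WT (limma adjusted p = 0.622).

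Endothelial markers gave 1 lower in cKO, the VEGF receptor gene Flt1, and 0 higher of 15, with a median of -0.06. Of the 15, 3 had an unadjusted p under 0.05 (limma), against 11.3% of all genes. Flt1 was at 1233 ± 86.3 in cKO and 1546 ± 75.9 in WT (limma adjusted p = 0.0417), and its call was lost without any of 8 of the 9 libraries, all but cKO replicate 3. With 1 library left out the log2 fold change of Flt1 was -0.43 to -0.25, and without the sex term its limma adjusted p was 0.00798. Kdr, another VEGF receptor gene, had 1527 ± 64.9 in cKO and 1798 ± 55.4 in WT (limma adjusted p = 0.0568). The adjusted p of Kdr was 0.00423 with DESeq2 and 0.0141 in limma without the sex term. Pecam1 had 714 ± 28.3 in cKO and 802 ± 49.1 in WT (limma adjusted p = 0.366), Ramp2 had 604 ± 49.7 in cKO and 691 ± 63.9 in WT (limma adjusted p = 0.626), and the tight junction gene Cldn5 had 1611 ± 143 in cKO and 1709.96 ± 116 in WT (limma adjusted p = 0.911). The endothelial sum lay between 11420 and 12612 in cKO and between 12563 and 14170 in WT, a range of 1.24-fold over all libraries, against 2.05-fold for the smooth muscle members. Of 14 arterial and venous endothelial genes 0 passed, and 2 had an unadjusted p under 0.05 (limma), against 11.3% of all genes. In this list 11 estimates were above 0, and the median log2 fold change was 0.11. The summed level of the list was 10741 to 11338 in cKO and 10263 to 11047 in WT. Against the direction of most of the list, Alpl was at 118 ± 16.9 in cKO and 193 ± 25.5 in WT (limma adjusted p = 0.136). DESeq2 gave Alpl an adjusted p of 0.03597, and limma without the sex term 0.0144. The venous transporter gene Slc38a5 had 348 ± 39.3 in cKO and 421 ± 42.96 in WT (limma adjusted p = 0.330). Mgp had 171 ± 7.203 in cKO and 150.1 ± 48.3 in WT (log2 fold change 0.44, limma adjusted p = 0.449), and Vwf had 1063 ± 70.9 in cKO and 979 ± 91.2 in WT (limma adjusted p = 0.584). The genes highest in level, Vcam1 and Efnb2, had log2 fold changes of -0.03 and 0.04 (limma adjusted p = 0.822 and 0.838).

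Meningeal fibroblast genes, from cells that lie beside the surface arteries, gave 0 of 15 tested that passed. Of the 15, 7 had an unadjusted p under 0.05 (limma), against 11.3% of all genes. Their median log2 fold change was 0.31. Their summed level was 14895.5 to 17177 normalized counts in cKO and 12693 to 16967 in WT, and 32.7% of it was Pdgfra, a gene that oligodendrocyte precursors also express. Pdgfra had 4656 ± 209.6 in cKO and 5083 ± 168 in WT, without overlap (log2 fold change -0.17 ± 0.0433, limma adjusted p = 0.161, and 0.0477 with DESeq2), so it lay against the direction of most of the list. The collagen gene Col1a1 had 1901 ± 181 in cKO libraries and 1425 ± 260.5 in WT libraries (limma adjusted p = 0.129), and Col3a1 at 1780 ± 201 in cKO and 1460 ± 364 in WT (limma adjusted p = 0.133). A further collagen gene, Col1a2, had 2266 ± 212 in cKO and 1889 ± 335 in WT (limma adjusted p = 0.272). Without WT replicate 3 Col1a1 and Col3a1 passed, at limma adjusted p of 0.0268 and 0.0114. WT replicate 3 was high for fibroblast and smooth muscle genes alike (16967 and 2214). cKO replicate 1 held the highest fibroblast sum, 17177, with a smooth muscle sum of 1181.

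**Figure D5:**
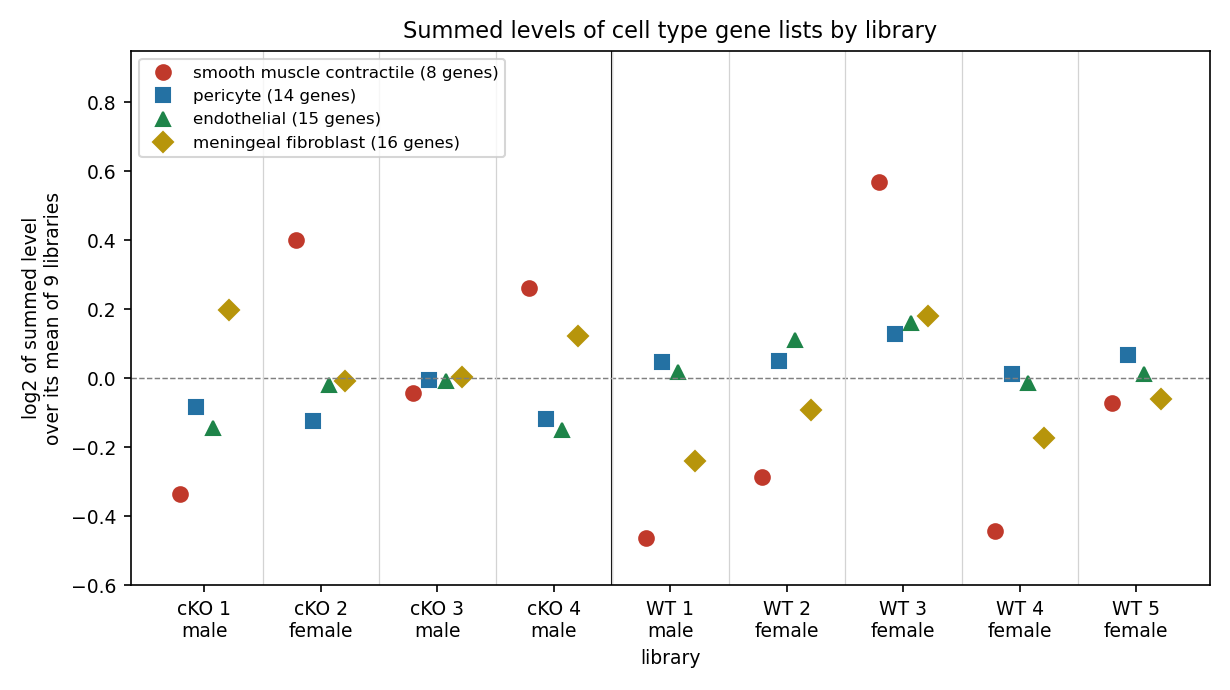
Log2 of the summed normalized counts of 4 gene lists in each library over their mean of 9 libraries, cKO left of WT. The smooth muscle genes (red circles) spread most, and in WT replicate 3 all 4 lists are above their mean.

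Markers of other tissues were also set beside the members, and no gene of any list was at 0 in all libraries. Of 15 striated muscle genes, a tissue that also expresses Des and Tpm2, 9 could be tested and 0 passed. Their sum varied by 1.13-fold, from 1524 to 1724 in cKO and from 1560.0 to 1641 in WT. Of it 50.6% was Ryr1, and the genes not tested lay below a mean of 10. The sum therefore does not show that muscle tissue was present. Ttn had 104 ± 15.3 in cKO and 142 ± 18.8 in WT (limma adjusted p = 0.371), and Ryr1, the largest part of that sum, had 823 ± 36.7 in cKO and 814 ± 30.7 in WT (limma adjusted p = 0.923). Choroid plexus genes, 12 in number, varied 55.8-fold, from 816 to 34297 in cKO and from 814 to 45411 in WT, with 0 that passed. Most of this sum was Ttr, the transthyretin gene, with a log2 fold change of 0.99 ± 1.67 (limma adjusted p = 0.857). The choroid sums were 24032, 3611, 816 and 34297 in cKO replicates 1 to 4, against 814, 45411, 10553, 26352 and 3117 in WT replicates 1 to 5. WT replicate 1 was lowest and cKO replicate 4 high for both choroid and smooth muscle genes, while WT replicates 2 and 4 were high for choroid and low for smooth muscle genes, and cKO replicate 2 was the reverse. By p the first choroid gene was Kcnj13, at 79.6 ± 67.8 in cKO and 68.2 ± 70.5 in WT (limma adjusted p = 0.645). Red blood cell genes summed to 1741 to 2385 in cKO and 2074 to 3449 in WT, with 0 of 6 that passed. Among them Hbb-bs, a beta-globin gene, averaged 1014 in cKO and 1443.5 in WT, a log2 fold change of -0.32 ± 0.1196 (limma adjusted p = 0.329), which was -0.50 without the sex term (limma adjusted p = 0.0635).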

How the data were processed

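The deposited table holds 1 signal value per gene and library, a normalized count made by the authors, whose spacing is that of whole reads over a size factor. FastQC 0.12.1, cutadapt 4.4, STAR 2.7.10b, DESeq2 1.41.8 and the GRCm39 build are named in the submitters' processing notes. The counter, annotation and strand setting of the counting are not stated in the labels. The step between values was 0.943 to 1.08, and 100.0% of values came within 0.1 read of a whole number of steps. In 3 libraries the step lies too close to 1 to be told from rounding at low values.

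The test was limma-trend (limma 3.58.1, R 4.3.3) on log2(normalized count + 1), with terms for genotype and sex, and kept genes with a mean of at least 10. edgeR 4.0.16 and DESeq2 1.42.0 ran on recovered reads. Fold changes come from the model and can differ from the ratio of means, and the scale understates the change of low genes. Scripts were tested on simulated data. Exon lengths, strands and shared windows of 50 bases came from GENCODE vM21 by Ensembl ID, and promoters from RefSeq (GRCm38.p6). Python 3.11.15 read the table.

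Members and lists were chosen with earlier results of these data known. The naming rule took the members, at most 4 genes of smallest p (plus the 2 highest in level for marker lists) from 11 further lists, and the 10 nearest patterns. The striated muscle, choroid plexus and red blood cell lists were named more sparsely, by the gene of smallest p and the one highest in level. Replicates follow record order and pair no samples. Litters are not given, so p-values cover only the variation among these samples, which may be technical. No libraries of a group were alike within sampling noise (chi-square per gene of 3.62 or more).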

Additional observations from a re-analysis of the deposited data

Results flagged for a closer look

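In the WT group, WT replicate 3 stood far above the other 4 libraries for 3 of the 8 genes, by the gap to the nearest library as a share of the whole range. Tagln was at 293 normalized counts there, against 159 in the nearest WT library (0.711 of the range). Myl9 was at 552, against 415 (0.767). Tpm2 was at 185, against 109 (0.732). The limit for 5 samples is 0.710, and 20 groups of values were examined, of which chance would mark about 1. The genes share the library, so these are not 3 separate observations. No cKO library was marked.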

How the results depend on the processing

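No member passed under any alternative run, and their estimates were above 0 under all but 3 of these alternatives, where Des was below it: males only, without cKO replicate 2 and without WT replicate 4 (7 of 8 each). Without cKO replicate 2, the only cKO female, the model with sex as a term gives the males-only estimate, so these are not separate results. Likewise, without WT replicate 1, the only WT male, it gives the females-only estimate. The ranges below with 1 library left out therefore include the males-only and females-only values. The median log2 fold change of the members was 0.33 without the sex term, the lowest value, and 0.36 to 0.69 with 1 library left out. The direction of Des was not stable: it was -0.20 in males only, and -0.20 to 0.26 with 1 library left out. Over all genes, 59 passed, 21 higher and 38 lower in cKO. DESeq2 called 199 (69 higher, 130 lower), and limma called 216 without the sex term (56 higher, 160 lower). The count was 11 in females alone, 3 in males alone and 10 to 65 with 1 library left out. Among other genes named, Ttr was at -0.33 with no term for sex, -2.13 among females and -2.13 to 4.33 with 1 library left out. Rarres2, at 0.22 with all libraries, was at -0.088 in males only and -0.088 to 0.52 with 1 library left out. Gata2, at 0.16 with all libraries, was at -0.014 without the sex term, -0.0027 in males only and -0.0027 to 0.31 with 1 library left out. Genes near 0 also crossed it. In males only, Itpr1 was at 0.038, Mrtfb at 0.0058 and Ryr1 at 0.017, and Ryr1 was at 0.014 with no term for sex. Among females, Cldn5 was at 0.028, Vcam1 at 0.00083, Efnb2 at -0.040 and Kcnj13 at -1.05. With 1 library left out the ranges were -0.32 to 0.038 for Itpr1, -0.23 to 0.0058 for Mrtfb, -0.055 to 0.017 for Ryr1, -0.09 to 0.028 for Cldn5, -0.066 to 0.00083 for Vcam1, -0.040 to 0.12 for Efnb2 and -1.05 to 4.06 for Kcnj13. Their causes were not tested. A mean of at least 50 left 6 members to test, without Cnn1 and Lmod1, whose few reads limit precision. No paired analysis was possible because the labels give no replicate numbers shared between the genotypes.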
